A study of Mus musculus with 14 samples.

Results

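The transcript response of wild-type (WT) mouse liver to tunicamycin is described here by leading genes outside the usual lists of stress genes and by lists of functions. It rests on all 7 WT samples of the 14 in the series, 4 titled as 6 h of tunicamycin and 3 titled as DMSO control, 1 Affymetrix array each. Per the labels, WT tunicamycin is liver 6 h after 1 mg/kg tunicamycin and WT control is liver given 0.3% DMSO, with no time stated for the controls. Strain, age and sex are not stated in the labels, nor is it stated whether each replicate is its own animal. The p-values therefore measure only the spread between these samples. The other 7 samples, 4 tunicamycin and 3 control livers of the lsPERK genotype, the knock-out of the series, had the same 2 agents and doses. They add to the estimate of spread that all 4 groups share in the model, and the leading genes were read again in them.

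Tunicamycin blocks the first sugar transfer onto the lipid carrier of N-linked glycosylation, so that secreted and membrane proteins fold poorly in the endoplasmic reticulum (ER). The sensors PERK, IRE1 and ATF6 then lower translation and raise chaperones, degradation factors and the transcription factors Atf4, Chop and Xbp1. Those target genes were put in stress lists, from which no leading gene was taken. The lists of functions kept members that are also in a stress list, such as Dusp8 and Slc7a1, in their counts and medians. The liver exports plasma proteins at a high rate, and it also holds much of the body's handling of lipids, amino acids, drugs and bile, which are the subject here.

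Short windows at the start sites of leading genes are shown first, since letters bound by the stress factors are known. RefSeq (GRCm38.p6) windows of 250 bases before to 50 after a start were found for 14 of the 16 leading risers and 14 of the 16 leading fallers defined further on. Motifs were searched on both strands. TGACGTGG, the letters of the unfolded protein response element, lay in a window of 2 of the 14 risers and 0 of the 14 fallers, against 1.02% of the 9775 tested genes with a window and 0.676% of all 32851 windows. TGACGTCA, the cyclic AMP response element, lay in 2 of 14 risers and 0 of 14 fallers, against 3.36% of tested genes and 1.79% of windows. Both motifs share the letters TGACGT. TTGCATCA, the C/EBP-ATF element, and the ER stress response element, which is CCAAT and CCACG with any 9 letters between them, were in the windows of 0 of 14 risers and 0 of 14 fallers, against 0.757% and 0.164% of tested genes and 0.895% and 0.119% of windows. CACGTG, the E-box, lay in 1 of 14 in each direction, against 11.7% of tested genes and 7.15% of windows. A match is a description of these letters and no evidence of binding. The windows of 3 risers are printed 5′ to 3′ with the matched letters in capitals: Ccdc149 (chr5:52471494-52471793, minus strand, match starting 30 bases before the start site), Isg20 (chr7:78913515-78913814, plus strand, the reverse complement of TGACGTGG starting at −20) and Ddx28 (chr8:106011437-106011736, minus strand, TGACGTCA at 23).
Ccdc149: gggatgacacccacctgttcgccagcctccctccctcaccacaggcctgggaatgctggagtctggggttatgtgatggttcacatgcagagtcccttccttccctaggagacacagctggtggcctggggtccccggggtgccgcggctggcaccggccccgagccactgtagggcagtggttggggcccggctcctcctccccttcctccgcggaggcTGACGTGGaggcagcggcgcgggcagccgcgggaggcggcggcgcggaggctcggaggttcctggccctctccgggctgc
Isg20: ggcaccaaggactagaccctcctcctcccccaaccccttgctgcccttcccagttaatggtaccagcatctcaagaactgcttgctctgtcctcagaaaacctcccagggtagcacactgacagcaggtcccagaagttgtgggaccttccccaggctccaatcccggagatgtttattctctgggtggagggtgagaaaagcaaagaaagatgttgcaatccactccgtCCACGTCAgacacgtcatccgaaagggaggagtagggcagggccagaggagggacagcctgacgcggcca
Ddx28: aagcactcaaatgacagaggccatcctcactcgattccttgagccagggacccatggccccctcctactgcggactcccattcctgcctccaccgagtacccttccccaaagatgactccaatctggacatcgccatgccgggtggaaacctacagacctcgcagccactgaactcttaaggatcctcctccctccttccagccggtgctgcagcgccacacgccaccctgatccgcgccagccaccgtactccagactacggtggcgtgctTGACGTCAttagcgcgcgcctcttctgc

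Arrays within a WT group correlated at r = 0.942 to 0.975 across genes (9 pairs) and arrays of different WT groups at 0.877 to 0.918 (12 pairs). Deposited array medians were 34.4 to 37.6 in WT control and 35.4 to 53.4 in WT tunicamycin, so values were quantile normalized. The β-actin control probe sets, whose 3′ over 5′ log2 ratio rises with RNA breakdown, gave 1.09 ± 0.15 (SD, n = 3) in WT control and 0.84 ± 0.25 (n = 4) in WT tunicamycin. Xist, the RNA of the inactive X chromosome, read 8230 in WT control replicate 1 and 9050 in WT tunicamycin replicate 2, and 23.4 to 61.2 on the other 5 WT arrays. Hepatocyte markers were present and 8 of 10 tested were not called, among them Alb, which encodes albumin, at 15500, 15560 and 16640 in the controls and 14570, 14880, 16270 and 16810 after tunicamycin. Their summed level was 148177 to 152757 in WT control and 139527 to 148021 after tunicamycin. In whole liver, fewer cells of a type and less RNA per cell cannot be told apart.

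Of 12085 genes tested, 5642 (46.7%) differed between WT tunicamycin and WT control at a limma adjusted p under 0.05, 2496 higher (20.7%) and 3146 lower (26%). Changes of at least 2-fold made up 1064 of the higher genes (8.8% of those tested) and 989 of the lower ones (8.18%). Levels below are normalized signals on the linear scale, listed in replicate order, and changes are log2 tunicamycin minus control. The balance of directions depended on scaling: 44.2% of the called genes were higher after quantile normalization, 60.7% after median centring and 83.7% in the values as deposited, where 3632 genes were higher (30.1%) and 706 lower (5.84%). The median change of all genes was −0.13 after quantile normalization and 0.30 as deposited, and every change is to be read against that. The 2493 genes called higher under both scalings (20.6%) and the 706 called lower under both (5.84%) are the base from which genes are named.

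The stress lists held 2.86% of all genes tested. Of the 1064 genes higher by at least 2-fold under both scalings, 137 were in a stress list (12.9%), 244 in a function list only and 683 (64.2%) in neither. Of the 620 genes lower by at least 2-fold under both (5.13% of those tested), 5 were in a stress list (0.806%), 212 in a function list only and 403 (65%) in neither. Of all genes tested, 71.3% were in neither kind of list.

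The 16 leading risers outside the stress lists were Il23a, Tes, Gm17767, Ccdc134, Piga, Ifrd1, Ccdc149, Zfp9, Ddx28, Isg20, Slc20a1, Tspyl2, Mab21l3, Cyp2b10, Gm19619 and Irx3, ranked by how far the 95% confidence limit of the change lay from 0. The rank used the fitted changes, so the places of 5 risers (Il23a, Gm17767, Ccdc149, Mab21l3 and Gm19619) and of 2 fallers (Tlr12 and Rnf186) rest in part on signals under the filter threshold of 41.5, and the size of their change is known only as a bound. Their known products are of unlike function: a cytokine subunit, a focal adhesion protein, a glycolipid anchor enzyme, a phosphate carrier, an RNA helicase and a cytochrome P450 are among them. In each of the 16 every tunicamycin array read above every control array. Groups that do not overlap were seen in 48.2% of all genes tested, and the genes were chosen for the size of this change, so nothing is read from that separation.

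Tes, which encodes testin of focal adhesions and actin fibres, read 65.5, 46.2 and 56.7 in the controls and 2422, 3156, 2494 and 2479 after tunicamycin (log2 5.56, SE 0.18, adjusted p = 1.46e-10), a 47.2-fold rise. Ifrd1, a transcriptional coregulator, read 510.2, 479 and 446 in the controls and 7523, 8797, 7715 and 7189 after tunicamycin (log2 4.03, SE 0.13, adjusted p = 1.46e-10). Slc20a1, the sodium-coupled phosphate carrier PiT-1, read 792, 1065 and 876 in the controls and 12500, 14700, 10500 and 9601 after tunicamycin (log2 3.69, SE 0.18, adjusted p = 3.9e-09). These 3 genes were above the filter threshold in every control, and the tunicamycin arrays of each lay close together. Piga, the catalytic subunit of the first enzyme of glycosylphosphatidylinositol anchor synthesis, read 183, 257 and 105 in the controls and 4199, 3457, 3691 and 3508 after tunicamycin (log2 4.44, SE 0.25, adjusted p = 1.31e-08). Ccdc134, a protein of the secretory pathway, read 98.1, 102 and 81.8 in the controls and 2285, 2490, 1629 and 1514 after tunicamycin (log2 4.37, SE 0.17, adjusted p = 7.52e-10). Cyp2b10, the drug-metabolizing P450 that is the usual readout of the receptor CAR, read 808, 1340 and 477 in the controls and 11270, 9206, 11300 and 11450 after tunicamycin (log2 3.75, SE 0.31, adjusted p = 5.61e-07). Its 4 tunicamycin values lay in a narrow band while its 3 controls spread over more than that band in log2 terms, and other Cyp2b genes are close in sequence, so the signal may be shared with them.

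Ddx28, a DEAD-box helicase of mitochondrial ribosome assembly, read 280.2, 262 and 344 in the controls and 4547, 4733, 3014 and 3496 after tunicamycin (log2 3.72, SE 0.17, adjusted p = 2.06e-09). Isg20, an RNA exonuclease first known as interferon-induced, read 80.9, 109 and 78 in the controls and 1004, 1282, 1111 and 1130 after tunicamycin (log2 3.68, SE 0.15, adjusted p = 7.52e-10). Irx3, an Iroquois homeobox factor, read 107, 63.4 and 109.5 in the controls and 1357, 1126, 942 and 1027 after tunicamycin (log2 3.60, SE 0.26, adjusted p = 1.42e-07). Isg20 was the only one of the tested interferon-stimulated genes that rose. Zfp9 (log2 3.99), a zinc finger protein, and Tspyl2 (log2 3.73), a nucleosome assembly family member, rose from control signals of 51.5, 55.4 and 42.2 and 78.5, 86 and 68.3.

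For 5 risers the control mean lay under the filter threshold of 41.5, so their rises are lower bounds with the controls raised to that threshold. Il23a, the specific subunit of an interleukin that drives T helper cells, read 1.54, 2.86 and 0.638 in the controls and 154, 266, 167 and 147 after tunicamycin, a rise of at least 4.3-fold (adjusted p = 1.01e-05). Gm17767 read 22.9, 41.8 and 22.2 in the controls and 1243, 1951, 979.7 and 852 after tunicamycin and rose at least 28.7-fold (adjusted p = 3.44e-08). Ccdc149 read 8.73, 31.6 and 17.6 in the controls and 399, 420.5, 370.1 and 259 after tunicamycin and rose at least 8.59-fold (adjusted p = 6.68e-07). The bounds of Gm19619 and Mab21l3 were 7.44-fold and 2.1-fold. In all 5 every tunicamycin array lay above the threshold. The filter itself asked for at least 3 arrays above it. For Il23a and Mab21l3 the means of WT control and of both lsPERK groups lay under it. Both were thus kept for their WT tunicamycin signal, and nothing is read from its place above the threshold.

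**Figure D1:**
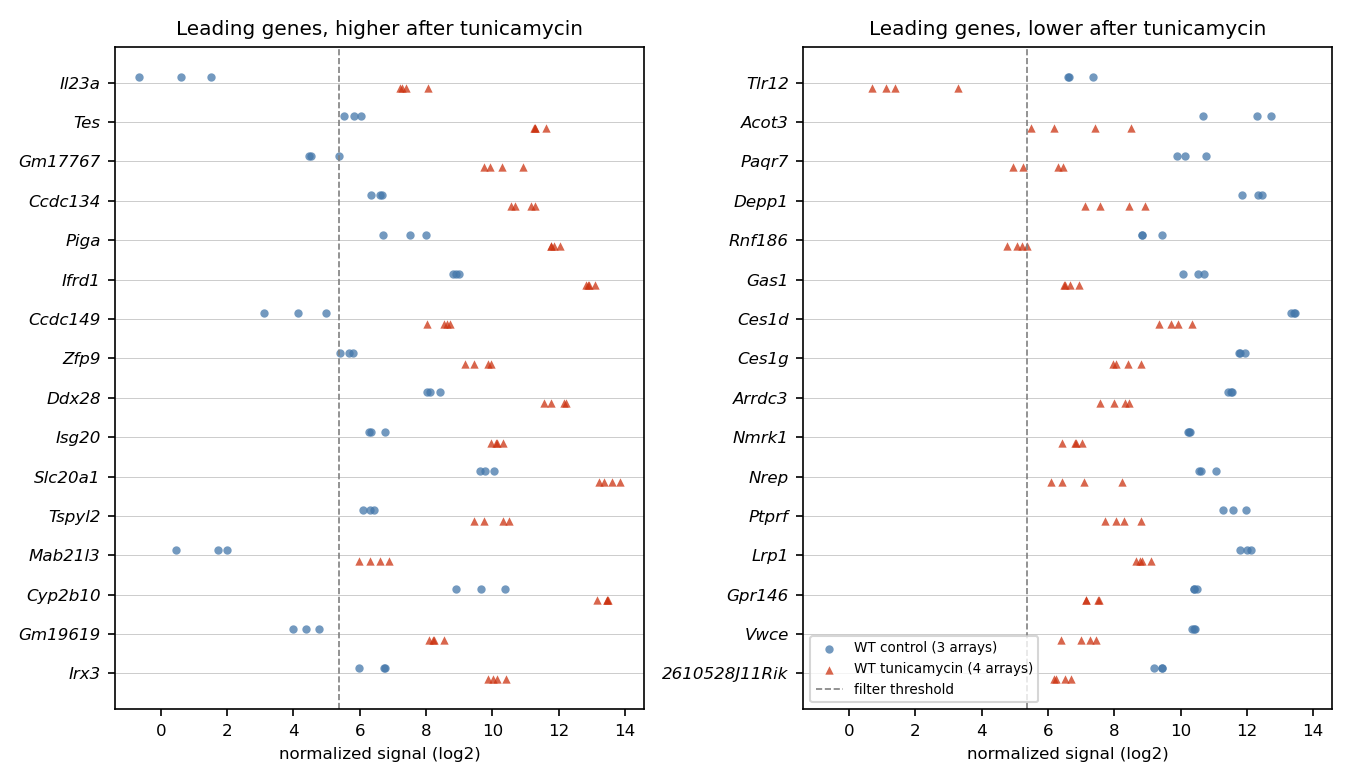
Normalized signal (log2, x axis) of the 16 leading risers and 16 leading fallers outside the stress lists on each of the 3 WT control and 4 WT tunicamycin arrays, with the filter threshold at log2 5.37 as a dashed line. No control and tunicamycin array overlap for any of these genes, which were chosen for the size of the change, and Il23a, Mab21l3 and Tlr12 are the ones with a group far under the threshold.

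The 16 leading fallers were Tlr12, Acot3, Paqr7, Depp1, Rnf186, Gas1, Ces1d, Ces1g, Arrdc3, Nmrk1, Nrep, Ptprf, Lrp1, Gpr146, Vwce and 2610528J11Rik. Arrdc3, an arrestin-domain protein that restrains insulin action, read 2957, 2786 and 3006 in the controls and 322, 351, 191 and 255 after tunicamycin (log2 −3.42, SE 0.18, adjusted p = 6.11e-09). Depp1, a FOXO target also induced by fasting, read 3705, 5226 and 5614 in the controls and 189.5, 138, 346 and 486 after tunicamycin (log2 −4.21, SE 0.36, adjusted p = 7.72e-07). Nmrk1, the kinase that turns nicotinamide riboside into an NAD precursor, read 1258, 1198 and 1235 in the controls and 116, 86.2, 129.9 and 113 after tunicamycin (log2 −3.48, SE 0.22, adjusted p = 5.05e-08). Controls of Arrdc3 and Nmrk1 stood within a narrow band, and the tunicamycin arrays of all 3 genes stayed above the filter threshold.

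Lrp1, the large endocytic receptor for lipoprotein remnants and protease complexes, read 4505, 4143 and 3583 in the controls and 553, 457, 402 and 439.9 after tunicamycin (log2 −3.14, SE 0.15, adjusted p = 2.75e-09). Ptprf, the receptor phosphatase LAR, read 4001, 3077 and 2504 in the controls and 267, 316, 210.5 and 446 after tunicamycin (log2 −3.39, SE 0.26, adjusted p = 2.51e-07). Gpr146, an orphan receptor that acts on plasma cholesterol, read 1352, 1369 and 1445 in the controls and 142, 184, 141 and 186 after tunicamycin (log2 −3.10, SE 0.16, adjusted p = 8.05e-09). Gas1, a Hedgehog co-receptor (log2 −3.79), Paqr7, a membrane progestin receptor (log2 −4.51), and Vwce (log2 −3.37) fell too. Nrep (log2 −3.78) and the unnamed transcript 2610528J11Rik (log2 −2.96) also fell.

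Acot3, a peroxisomal acyl-CoA thioesterase, read 6755, 1655 and 5061 in the controls and 73.3, 362, 45 and 172 after tunicamycin (log2 −5.002, SE 0.63, adjusted p = 2.13e-05). Ces1d and Ces1g, carboxylesterases that hydrolyse triglycerides and drug esters, fell 12-fold and 11.5-fold, Ces1d from 11300, 10360 and 11050 to 965, 1308, 647 and 838. The Acot and Ces1 genes have near-identical neighbours, so a probe set may read more than its own gene. The close relatives fell too: Acot4 (log2 −1.57), Acot1 (log2 −1.79, with overlapping groups) and Ces1f (log2 −2.10). Rnf186, an ER-resident ubiquitin ligase, fell at least 12.8-fold and Tlr12, a Toll-like receptor for profilin, at least 2.83-fold, from control signals of 100.4, 97.4 and 165. With no filter on low values Tlr12 was read from another probe set and was not called (log2 −0.26).

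The same 32 genes were read in the lsPERK contrast. Its differences took no part in choosing the genes, but its arrays were in the normalization, the filter and the shared spread that set the confidence limits, and the SE of a gene is the same in both contrasts. Genes of small spread were thus favoured in the choice and also in the calls that follow. In lsPERK liver 11 of the 16 risers were called higher against 8.42% of all genes, 10 of the 16 fallers were called lower against 7.27%, and 0 of 32 were called in the opposite direction. The lsPERK changes ran from −0.18 to 3.36 for the risers and from −3.69 to −0.08 for the fallers. Zfp9 (3.36), Gm17767 (2.34) and Tspyl2 (2.33) were called higher and Ces1g (−3.69), Nrep (−3.53) and Ces1d (−2.49) lower. Cyp2b10 (−0.02), Irx3 (0.17), Ddx28 (0.32), Depp1 (−0.08) and Arrdc3 (−0.11) were not called there. Whether these changes differ between the genotypes was not tested here.

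Genes that make ribosomes and modify RNA were the function group with the highest median. Of 86 tested genes of RNA polymerase I and III and ribosome biogenesis, 64 rose and 2 fell, against 20.7% and 26% of all genes, and 33 rose by at least 2-fold. As deposited 74 were higher and 0 lower. The list median was 0.82 against −0.13 for all genes. Nol8, a nucleolar factor, read 148, 259.7 and 245 in the controls and 1602, 1997, 1535 and 1607 after tunicamycin (log2 2.99, SE 0.18, adjusted p = 2.88e-08). Nop58, a core protein of box C/D particles that guide rRNA methylation, read 229.9, 338 and 344 in the controls and 1662, 2402, 1864 and 1980 after tunicamycin (log2 2.71, SE 0.18, adjusted p = 5.59e-08). Tsr1, needed for the small subunit (log2 2.44), Nip7 (log2 2.35), Gar1 of the pseudouridine-guiding particles (log2 2.20) and Gnl3, nucleostemin (log2 1.90), rose with groups apart. The abundant nucleolar proteins moved less: Ncl, nucleolin, rose by log2 0.74 and Npm1, nucleophosmin, by log2 0.63, while Fbl, fibrillarin, read 1529, 1522 and 1785 in the controls and 1624, 2013, 1610 and 2040 after tunicamycin and was not called (log2 0.17, adjusted p = 0.218), though it was called higher as deposited. Ribosomal proteins of the cytosol, the product being assembled, had 15 of 46 higher and 2 lower, with 9 higher without the pair of tunicamycin arrays of high median and 5 higher after median centring.

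Among 72 genes of tRNA and rRNA modification 35 rose and 11 fell (50 and 0 as deposited). The enzyme that methylates an adenosine of the tRNA T loop rose in its catalytic subunit Trmt61a, 54.1, 88.2 and 66.6 in the controls and 658, 771, 597 and 649.8 after tunicamycin (log2 3.29, SE 0.26, adjusted p = 4.06e-07), and in its partner Trmt6, 199.8, 266 and 169 in the controls and 1185, 1381, 1048 and 978 after tunicamycin (log2 2.45, SE 0.17, adjusted p = 9.6e-08). The mitochondrial form of the catalytic subunit, Trmt61b, read 155, 201 and 169 in the controls and 1294, 1213, 1185 and 1160 after tunicamycin (log2 2.80, SE 0.17, adjusted p = 3.44e-08). All 3 genes stood apart between groups. Mettl3, the catalytic subunit of the mRNA adenosine methylase, rose by log2 1.32, and Alkbh2, which this list also holds and which is known for repairing DNA alkylation, by log2 2.22.

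Splicing factors had 32 of 68 higher and 3 lower (51 and 1 as deposited). Tra2a and Tra2b, which bind exonic enhancers, read 356, 328 and 269 in the controls and 1008, 1057, 815 and 780.2 after tunicamycin and 1062, 1329 and 1122 in the controls and 3605, 3273, 3390 and 3104 after tunicamycin (both log2 1.52), and Srsf6 rose by log2 1.00. Of 45 initiation factors and eIF2 kinases 23 rose and 4 fell (27 and 1 as deposited), led by Eif1a, which helps the scanning ribosome, at 1076, 1326 and 1130 in the controls and 6542, 6232, 5757 and 5687 after tunicamycin (log2 2.37, SE 0.11, adjusted p = 3.52e-09). Eif3a (log2 1.37) and Eif5 (log2 0.97) also rose. Of 44 genes of mRNA decay 17 rose and 6 fell (27 and 0 as deposited), among the risers the deadenylase partner Cnot4 (log2 1.26) and the exosome nuclease Dis3 (log2 1.12). These lists thus had medians of 0.31, 0.29 and 0.28, all above the median of all genes.

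**Figure D2:**
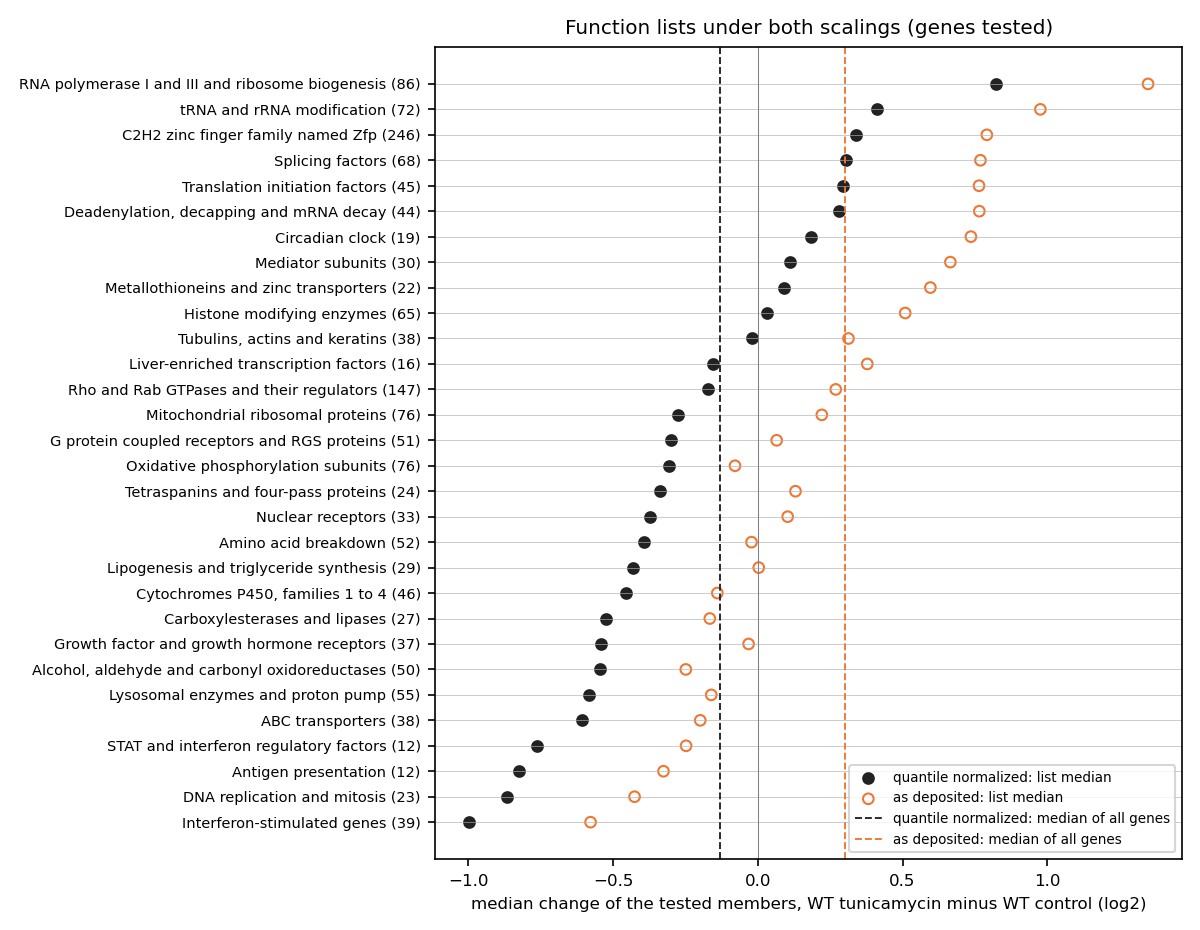
Median log2 change (x axis) of the tested members of 30 function lists, filled points after quantile normalization and open points as deposited, with the median of all 12085 genes as dashed lines at −0.13 and 0.30. Ribosome biogenesis is highest and the interferon-stimulated genes lowest under both scalings, and scaling shifts all lists in the same direction.

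Zinc finger genes of the Zfp family, the largest family of DNA-binding factors, had 82 of 246 higher and 18 lower (111 and 5 as deposited), with a median of 0.34. Zfp330, a nucleolar zinc finger protein, read 788, 922 and 725 in the controls and 4078, 4671, 4433 and 3550 after tunicamycin (log2 2.37, SE 0.11, adjusted p = 3.66e-09), and Zfp869, Zfp110 and Zfp180 rose by log2 2.02, 1.47 and 1.39. Zfp467 went the other way, from 391, 429 and 423 to 122, 68.3, 66.1 and 68.8 (log2 −2.40, SE 0.22, adjusted p = 1.06e-06). Of 30 Mediator subunits 9 rose and 3 fell (17 and 0 as deposited), Med7 by log2 1.57. The 65 histone-modifying enzymes had 18 higher (27.7%) and 18 lower (27.7%), with 27 and 3 as deposited. Of all genes 20.7% rose and 26% fell. Kdm4a, a demethylase, rose from 172, 217 and 292 to 1637, 767, 1699 and 1546, and Kdm6a rose by log2 2.07. The deacylases Hdac6 (log2 −1.29), Sirt4 (log2 −1.89) and Sirt5 (log2 −1.09) fell. Risers and fallers were not counted by enzyme class.

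Clock genes, which run the daily rhythm of liver transcription, changed in both directions. Of 19 tested 7 rose (36.8%) and 4 fell (21.1%), against 20.7% and 26% of all genes, with 10 and 3 as deposited. Nfil3, a repressor of D-box genes, read 210.4, 453 and 555 in the controls and 2909, 1774, 2410 and 2418 after tunicamycin (log2 2.64, SE 0.29, adjusted p = 5.42e-06). Rora, an activator of Bmal1, read 2024, 1963 and 2249 in the controls and 8757, 6131, 8772 and 9366 after tunicamycin (log2 1.97, SE 0.17, adjusted p = 8.37e-07). Cry1 (log2 1.54) and Clock (log2 1.06) rose as well. In the other direction, Hlf, a D-box activator, read 826, 831 and 1034 in the controls and 337, 151, 338 and 410.5 after tunicamycin (log2 −1.62, SE 0.25, adjusted p = 0.000137), and Per3 (log2 −1.28) and Nr1d1, which encodes the repressor REV-ERBα (log2 −1.69), fell. Dbp, another D-box activator, read 5821, 4627 and 5177 in the controls and 2156, 2552, 3201 and 4247 after tunicamycin and was not called (adjusted p = 0.105), though it was called lower with Xist as a covariate (log2 −0.87) and with the WT arrays alone (log2 −0.82). The labels give no time of day and no time for the controls, so time of collection and treatment cannot be told apart for these genes.

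Of 33 nuclear receptors 3 rose (9.09%) and 12 fell (36.4%), against 20.7% and 26% of all genes, with 6 and 5 as deposited. Nr0b2, the bile acid-induced repressor SHP, read 939.5, 1560 and 1787 in the controls and 179, 59.1, 241 and 137 after tunicamycin (log2 −3.33, SE 0.39, adjusted p = 1.04e-05). Ppargc1a, the coactivator of gluconeogenic and mitochondrial genes, counted under gluconeogenesis, read 318, 208 and 115 in the controls and 30.2, 54.1, 42.6 and 38.7 after tunicamycin and fell at least 4.41-fold (adjusted p = 0.000162). Ppara (log2 −1.97, adjusted p = 1.73e-05), Nr3c2, the mineralocorticoid receptor (log2 −1.72), and Nr2f2, COUP-TFII (log2 −1.13), fell too. Among 16 liver-enriched factors 3 rose (18.8%) and 5 fell (31.2%), near the shares of all genes, with 4 and 2 as deposited. The forkhead pioneers diverged, Foxa2 falling from 788, 684 and 818 to 269, 179, 208 and 242 (log2 −1.78, SE 0.20, adjusted p = 6.29e-06) and Foxa3 rising by log2 0.85. Hnf4a, the central hepatocyte factor, read 6490, 6679 and 7039 in the controls and 9003, 6519, 8544 and 9516 after tunicamycin and was not called (adjusted p = 0.0745), though it was called higher as deposited and without tunicamycin replicate 2 (log2 0.42). Prox1 (log2 0.92) rose. Of 15 Kruppel-like factors 4 rose (26.7%) and 1 fell (6.67%), with 8 and 1 as deposited. The risers included Klf10 (log2 1.93), Klf3 (log2 1.62) and Klf9 (log2 0.71), and Klf1, an erythroid factor, fell (log2 −2.10).

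Receptors and carriers of growth signals were more often lower than higher after normalization. Of 37 growth factor and growth hormone receptors and adaptors, 2 rose and 19 fell (4 and 4 as deposited), with a median of −0.54 (−0.03 as deposited). Erbb3, a neuregulin receptor, read 3277, 2879 and 3362 in the controls and 764, 916, 644 and 724 after tunicamycin (log2 −2.07, SE 0.22, adjusted p = 3.87e-06). Igfals, which holds IGF1 in its long-lived plasma complex, read 2314, 2079 and 1951 in the controls and 248, 305, 260.1 and 400.2 after tunicamycin (log2 −2.82, SE 0.15, adjusted p = 8.72e-09), while Igf1 itself read 11400, 10740 and 11130 in the controls and 9609, 8852, 9935 and 10730 after tunicamycin and was not called (adjusted p = 0.0765), though it was called lower without tunicamycin replicate 4 (log2 −0.23). The insulin receptor Insr (log2 −1.07), the hepatocyte growth factor receptor Met (log2 −1.02) and the growth hormone receptor Ghr (log2 −0.42) fell by smaller steps and were not called as deposited. Ghr was also not called without control replicate 2 or 3 or tunicamycin replicate 2 or 4 (log2 −0.30 to −0.42). Egfr, the receptor of epidermal growth factor, read 3074, 8350 and 6597 in the controls and 8519, 2622, 8876 and 9576 after tunicamycin and was not called (adjusted p = 0.703). Its low values were on the array of each group with high Xist. The adaptors Grb7 (log2 −1.67) and Socs3 (log2 −1.48) and the lysosomal sorting receptor Igf2r (log2 −1.46) fell. Grb10, an adaptor that restrains insulin signalling, was called higher (log2 1.53, adjusted p = 0.0335) from 155, 143 and 115 to 308, 1725, 237 and 189, and the highest of these was the Xist-high array. It was not called without control replicate 1, 2 or 3 (log2 1.399 to 1.62).

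The ligands of the EGF family split. Betacellulin, Btc, read 58.6, 88.7 and 82.9 in the controls and 404, 262, 340.4 and 326 after tunicamycin (log2 2.12, SE 0.23, adjusted p = 5.08e-06). Nrg1 read 2.37, 14.3 and 1.19 in the controls and 63.8, 124, 61.4 and 60.8 after tunicamycin and rose at least 1.78-fold (adjusted p = 0.00391), but was not called in the Xist-low arrays alone. Nrg4, a neuregulin secreted by brown fat, read 609, 638 and 773 in the controls and 266, 102, 250.5 and 305 after tunicamycin (log2 −1.65, SE 0.29, adjusted p = 0.000316). In all 3 the groups did not overlap. Tnfrsf12a, the TWEAK receptor Fn14 that appears in injured liver, read 224, 243 and 322 in the controls and 2370, 4865, 2006 and 2103 after tunicamycin (log2 3.35, SE 0.39, adjusted p = 1.01e-05).

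Of 49 genes of Wnt, Notch and Hippo signalling 10 rose (20.4%) and 7 fell (14.3%), against 20.7% and 26% of all genes, and as deposited 14 were higher and 2 lower. The Wnt receptor Fzd5 read 136, 193 and 185 in the controls and 467, 503, 397 and 440.2 after tunicamycin (log2 1.41, SE 0.18, adjusted p = 2.18e-05), and its relative Fzd7 rose by log2 1.97. The R-spondin receptors Lgr4 and Lgr5, which strengthen Wnt signals near the central vein, fell (log2 −1.47 and −1.71). Of 51 G protein coupled receptors and RGS proteins 4 rose (7.84%) and 15 fell (29.4%), with 7 and 9 as deposited. The share of fallers was near that of all genes and the share of risers below it. Lpar6, a lysophosphatidic acid receptor, read 1125, 996 and 1247 in the controls and 246, 280.1, 243 and 228 after tunicamycin (log2 −2.17, SE 0.11, adjusted p = 6.11e-09), and S1pr1, the sphingosine phosphate receptor of endothelium, fell (log2 −2.14). Liver endothelial markers as a list had 0 of 13 higher and 2 lower (1 and 0 as deposited), a median of −0.07, and a summed level of 8419 to 13051 in WT control and 7729 to 11792 after tunicamycin.

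Of 38 tested tubulins, actins and keratins 8 rose (21.1%) and 7 fell (18.4%), near the 20.7% and 26% of all genes, and as deposited 9 were higher and 0 lower. Tubb6 read 156, 141 and 142 in the controls and 912, 1769, 912 and 719.9 after tunicamycin (log2 2.79, SE 0.39, adjusted p = 5.19e-05), and Tubb4b and Tubb5 rose by log2 1.67 and 1.35. These β-tubulins are near-identical in their coding sequence and may share probes. Actg1, γ-actin, read 4935, 4104 and 3764 in the controls and 9627, 13090, 7743 and 7756 after tunicamycin (log2 1.14, SE 0.20, adjusted p = 0.000306), Krt18, the simple-epithelium keratin, rose by log2 0.89 and the tropomyosin Tpm4 by log2 0.88. Cdc42ep5, an effector of the GTPase Cdc42, read 91.7, 198 and 120.5 in the controls and 1304, 1129, 1753 and 1312 after tunicamycin (log2 3.38, SE 0.23, adjusted p = 7.76e-08), and it was not called when its probe sets were averaged (log2 1.26). Without control replicate 1 or control replicate 3 the fallers of the list were 4 in place of 7.

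Several junction genes fell. Of 60 integrins and cell adhesion molecules 2 rose and 17 fell (7 and 6 as deposited), against 20.7% and 26% of all genes, so the share of fallers was near the background and the share of risers below it. Cldn2, the pore-forming claudin of liver, read 1758, 2438 and 2636 in the controls and 259, 266, 446 and 399.5 after tunicamycin (log2 −2.75, SE 0.27, adjusted p = 2.36e-06). Cldn1, a sealing claudin, read 914, 861 and 610.4 in the controls and 131, 88, 190.4 and 187 after tunicamycin (log2 −2.46, SE 0.25, adjusted p = 3.7e-06). Cldn3, the abundant hepatocyte claudin, read 3573, 3375 and 3596 in the controls and 1225, 1540, 1508 and 2059 after tunicamycin (log2 −1.18, SE 0.13, adjusted p = 9.19e-06). Marveld1 (log2 −1.89), Cldn14 (log2 −0.97) and the gap junction protein of hepatocytes, Gjb1 (log2 −1.07), were lower as well. Rab17, a GTPase of apical sorting in polarized epithelia, read 1301, 965 and 1313 in the controls and 189, 117, 183 and 276 after tunicamycin (log2 −2.69, SE 0.22, adjusted p = 5.8e-07), and the matrix protein Fn1, fibronectin, fell (log2 −1.32) from 13450, 11780 and 11750. Rab33b, a Golgi and autophagy GTPase, rose by log2 1.73.

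**Figure D3:**
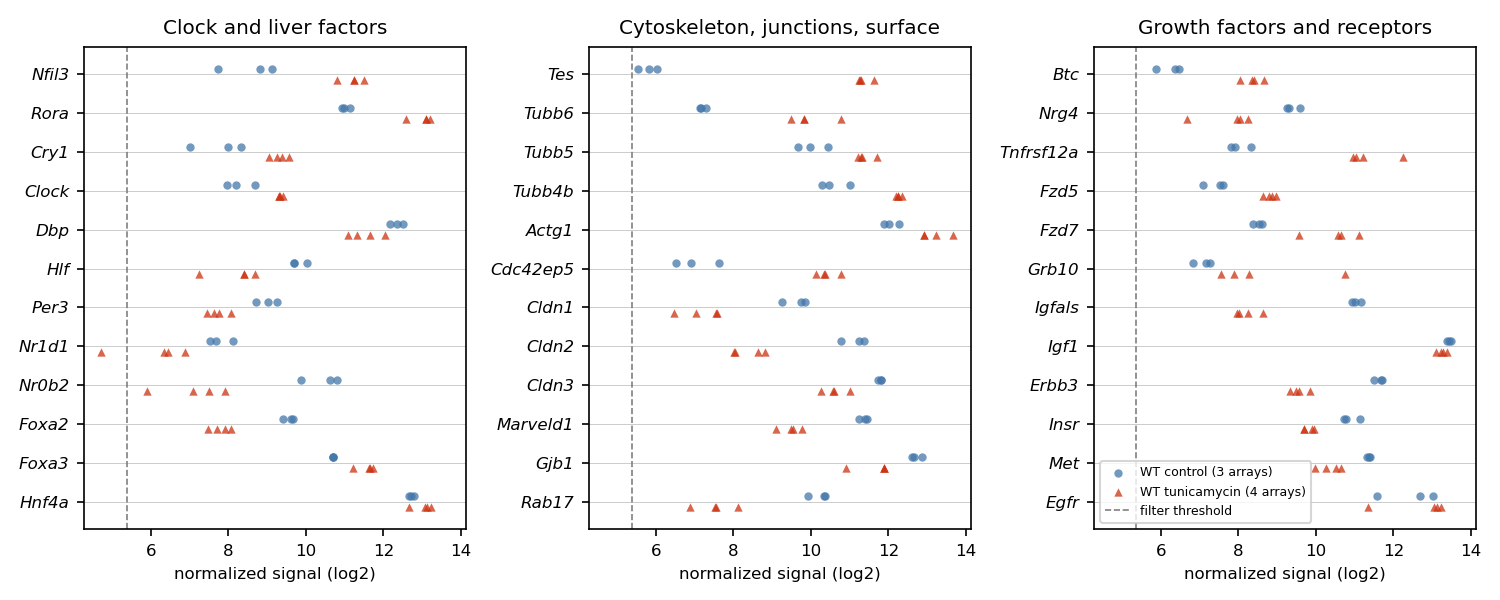
Normalized signal (log2, x axis) on each of 3 WT control and 4 WT tunicamycin arrays for 12 clock and liver factors, 12 genes of the cytoskeleton and cell surface and 12 growth factors and receptors. The groups stand apart for Cldn1, Cldn2, Nr0b2 and Tnfrsf12a, and they overlap for Hnf4a and Egfr.

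Genes of fat synthesis were more often lower than higher. Of 29 genes of lipogenesis and triglyceride synthesis 1 rose and 13 fell (1 and 5 as deposited). Acacb, the acetyl-CoA carboxylase that controls fatty acid entry into mitochondria, read 571, 515 and 299.7 in the controls and 84.4, 50.4, 80.3 and 78.2 after tunicamycin (log2 −2.63, SE 0.40, adjusted p = 0.000119). Gpam, the mitochondrial first step of glycerolipid synthesis, fell (log2 −1.37), and Agpat2, the next step, (log2 −1.48). The single riser was Gpat3, the ER enzyme of the first step, at 965, 213 and 743 in the controls and 2516, 4256, 2405 and 2459 after tunicamycin (log2 2.40, SE 0.41, adjusted p = 0.000265), so the mitochondrial enzyme Gpam and the ER enzyme Gpat3 moved oppositely. Lipins, which make diacylglycerol, diverged too, Lpin3 rising from 39.9, 46.7 and 46.3 to 214, 231, 349 and 194 and Lpin2 falling (log2 −1.85). Lipg, endothelial lipase, fell (log2 −3.11). Of 40 genes of phospholipid and sphingolipid synthesis 4 rose and 19 fell, with a median of −0.39, and as deposited 7 were higher and 2 lower. Chka, choline kinase α of phosphatidylcholine synthesis, was 1 of the 4 risers and read 222, 232 and 165 in the controls and 2329, 2462, 1801 and 2076 after tunicamycin (log2 3.40, SE 0.18, adjusted p = 6.39e-09). Acsl4, the acyl-CoA synthetase of arachidonic acid, rose by log2 1.79.

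In cytochrome P450 families 1 to 4, 1 of 46 genes rose (2.17%), Cyp2b10, and 14 fell (30.4%), with 1 and 2 as deposited. Of all genes 20.7% rose and 26% fell, so the share of fallers was near the background and the share of risers below it. Leaving out control replicate 2 gave 8 fallers, and leaving out the pair of tunicamycin arrays of high median gave 7. Cyp2g1 (log2 −2.95) and Cyp2c54 (log2 −0.75) fell under both scalings. Of 50 alcohol, aldehyde and carbonyl oxidoreductases 3 rose and 27 fell (3 and 13 as deposited), with a median of −0.55. Aldh1b1, a mitochondrial acetaldehyde enzyme, read 1237, 1408 and 602 in the controls and 166, 229, 219.5 and 119.9 after tunicamycin (log2 −2.51, SE 0.38, adjusted p = 9.97e-05). Aldh5a1 of GABA breakdown fell (log2 −1.70), and Akr1d1, the steroid reductase of bile acid synthesis, (log2 −1.64). Cyp8b1, the sterol hydroxylase that sets the share of cholic acid, read 3413, 7942 and 6581 in the controls and 2028, 2203, 969 and 1051 after tunicamycin (log2 −1.95, SE 0.34, adjusted p = 0.000371).

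Genes of amino acid breakdown had 27 of 52 lower and 2 higher (6 and 2 as deposited). Hal, histidine ammonia-lyase, read 3455, 4222 and 2301 in the controls and 708, 555, 1114 and 936 after tunicamycin (log2 −2.01, SE 0.25, adjusted p = 1.65e-05), and Ido2 of tryptophan breakdown fell (log2 −1.84). Cps1, the first enzyme of the urea cycle, read 17110, 18280 and 16730 in the controls and 17640, 17990, 18440 and 17560 after tunicamycin and was not called (adjusted p = 0.477). Of 34 genes of nucleotide synthesis 7 rose (20.6%) and 10 fell (29.4%), near the 20.7% and 26% of all genes, with 13 and 3 as deposited. Cad, the start of pyrimidine synthesis, read 118, 156 and 99.6 in the controls and 653, 538, 532 and 568 after tunicamycin (log2 2.22, SE 0.16, adjusted p = 1.24e-07), and Ctps, CTP synthetase, rose by log2 1.38.

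Respiratory chain genes fell by small amounts after normalization. Of 76 oxidative phosphorylation subunits 2 rose and 54 fell, the median was −0.31, and 0 fell by 2-fold. As deposited 2 were higher and 5 lower, with a median of −0.08 beside 0.30 for all genes. Mitochondrial ribosomal proteins had 12 of 76 higher and 38 lower, and 23 and 2 as deposited, so their direction turned with scaling. Mrps18b rose by log2 1.28 and Mrpl49 fell (log2 −1.30). The carrier Slc25a23, an ATP and phosphate exchanger, read 1482, 1612 and 1356 in the controls and 347, 263, 365 and 428 after tunicamycin (log2 −2.10, SE 0.15, adjusted p = 1.13e-07), and Slc25a45, a carrier of the same family, fell (log2 −2.47).

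Lysosomal genes, which degrade glycans, lipids and proteins, had 33 of 55 lower and 5 higher, with a median of −0.58. As deposited 4 were lower and 5 higher, with a median of −0.16 beside 0.30 for all genes. Atp6v1a, the ATP-binding subunit of the proton pump, read 1550, 1481 and 1481 in the controls and 684, 718, 727 and 751 after tunicamycin (log2 −1.06, SE 0.08, adjusted p = 2.89e-07). Glb1, β-galactosidase, read 440.4, 316 and 327 in the controls and 114, 131, 144 and 128 after tunicamycin (log2 −1.47, SE 0.16, adjusted p = 4.64e-06). Hgsnat of heparan sulfate breakdown fell (log2 −1.41) and Gusb, β-glucuronidase, (log2 −1.26). Npc1, the cholesterol exporter of the lysosome, went the other way, at 1821, 1542 and 1610 in the controls and 3903, 4379, 3903 and 3182 after tunicamycin (log2 1.21, SE 0.16, adjusted p = 3.13e-05).

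Carriers of small molecules changed in both directions. Of 39 organic anion, cation and monocarboxylate transporters 5 rose (12.8%) and 13 fell (33.3%), against 20.7% and 26% of all genes. As deposited 7 were higher and 7 lower. Slc10a1, the bile acid uptake carrier NTCP, read 12580, 13350 and 11370 in the controls and 6040, 5471, 7848 and 6931 after tunicamycin (log2 −0.93, SE 0.12, adjusted p = 1.94e-05), and Slc47a1, an exporter of organic cations, fell (log2 −1.29). Slc17a9, the vesicular nucleotide transporter, read 63, 95.4 and 79 in the controls and 526, 499.5, 539.8 and 502 after tunicamycin (log2 2.73, SE 0.19, adjusted p = 1.28e-07), and Slc16a6, a monocarboxylate carrier used for ketone bodies, rose at least 5.63-fold from 52.8, 24.8 and 22.2 to 329, 221, 222 and 255. Of 38 ATP-binding cassette genes 3 rose (7.89%) and 14 fell (36.8%), 11 of them by at least 2-fold, with 5 and 8 as deposited. Abca3, a phospholipid exporter, read 2902, 1653 and 2161 in the controls and 398, 416, 491 and 436 after tunicamycin (log2 −2.33, SE 0.23, adjusted p = 1.99e-06), and Abcb6, a porphyrin transporter, fell (log2 −1.63).

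Zinc handling had 8 of 22 genes higher (36.4%) and 4 lower (18.2%), against 20.7% and 26% of all genes, with 11 and 1 as deposited. The importers Slc39a6 and Slc39a7, the latter of the ER and Golgi, rose by log2 2.08 and 1.46. Slc30a5, which loads zinc into the secretory pathway, read 954, 1358 and 1184 in the controls and 4247, 4149, 3434 and 3065 after tunicamycin (log2 1.68, SE 0.13, adjusted p = 4.08e-07). The metallothioneins Mt1 and Mt2 read 9294, 3532 and 9172 in the controls and 17170, 15720, 16070 and 17420 after tunicamycin for Mt1 and 3534, 629 and 4009 in the controls and 15690, 13990, 14010 and 14540 after tunicamycin for Mt2 (log2 1.31 and 2.81). Both were much lower in control replicate 2 than in the other controls, and their tunicamycin arrays were alike. Slc39a4, an importer of the cell surface, fell (log2 −1.42).

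Interferon-stimulated genes had the lowest median of the function lists, −0.997 (−0.58 as deposited). Of 39 tested 1 rose, Isg20, and 20 fell (1 and 10 as deposited). Ifi47, an interferon-induced GTPase, read 2115, 948 and 909 in the controls and 149.5, 384, 104 and 142 after tunicamycin (log2 −2.84, SE 0.44, adjusted p = 0.000119). Iigp1, of the same GTPase family, read 13040, 8105 and 10730 in the controls and 2363, 3803, 2896 and 4276 after tunicamycin (log2 −1.68, SE 0.22, adjusted p = 2.49e-05). Ifit1 read 238, 109 and 136 in the controls and 35.1, 37.2, 40.2 and 28.8 after tunicamycin and fell at least 3.67-fold (adjusted p = 6.42e-05), and Ddx58, the RNA sensor RIG-I, fell (log2 −1.53). Of the 12 STAT and interferon regulatory factors 0 rose and 10 fell (6 fell without control replicate 1, and 1 as deposited), Irf7 from 514, 229 and 415 to 126, 93, 77.5 and 89.6. Of 12 antigen presentation genes 1 rose and 7 fell (1 and 2 as deposited), among them the peptide-loading protein Tapbp (log2 −1.19), and Psmb10, an immunoproteasome subunit, fell (log2 −1.48). The interferon-γ receptor chain Ifngr2 read 265, 254 and 278 in the controls and 70.4, 79.7, 70.3 and 74.9 after tunicamycin (log2 −1.85, SE 0.18, adjusted p = 2.55e-06).

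Lists of immune cell markers had medians below that of all genes on the same arrays. Of 13 macrophage markers 0 rose and 1 fell, the median was −0.71 (−0.20 as deposited), none was at 0, and their summed level was 9892 to 28748 in WT control and 6141 to 19232 after tunicamycin. Clec4f, a defining marker of Kupffer cells, read 3266, 1038 and 2007 in the controls and 761, 2388, 993 and 942 after tunicamycin and was not called (adjusted p = 0.212). Adgre1, F4/80, read 703, 304 and 459 in the controls and 232, 408, 246 and 297 after tunicamycin and was not called (adjusted p = 0.12). The highest value in each group was again on the array with high Xist, as for Ifi47. With Xist as a covariate Clec4f was called lower (log2 −0.64), and without control replicate 2 Adgre1 was called lower (log2 −0.98). T and NK cell, B cell and neutrophil markers had 0 called of 8, 7 and 6, with medians of −0.54, −0.57 and −0.58. Summed levels were 175 to 561 in WT control and 141 to 489 after tunicamycin for T and NK cell markers. For B cell markers they were 498 to 1071 and 391 to 670. Those of neutrophil markers were 328 to 1069 and 524 to 3151, with changes of up to log2 1.58, so the median and the sum moved in opposite directions. The part of these cells in the fall of the interferon genes was not tested.

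Of 17 chemokines 1 rose (5.88%) and 2 fell (11.8%), with the same counts as deposited. Both shares were below the 20.7% and 26% of all genes. The fallers were Cxcl12, a homing factor (log2 −1.37), and Cxcl1, a neutrophil attractant. Cxcl1 read 746, 970.3 and 1083 in the controls and 351, 139.5, 319 and 281 after tunicamycin (log2 −1.84, SE 0.28, adjusted p = 9.76e-05). The riser was Ccl9 (log2 1.56). Hc, the complement component that starts the membrane attack complex, fell (log2 −1.79) and Mbl1, a mannose-binding lectin, (log2 −0.99).

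Cell cycle genes moved in both directions. Of 50 cyclins and cell cycle kinases 16 rose (32%) and 11 fell (22%), against 20.7% and 26% of all genes, with 22 and 5 as deposited. The largest rise of that list was that of Cdkn1a, which encodes p21 (log2 5.25, SE 0.58, adjusted p = 6.97e-06). Of 23 genes of DNA replication and mitosis 2 rose and 11 fell (3 and 6 as deposited), and 6 fell without control replicate 1 or without control replicate 3. Tk1, thymidine kinase, read 1072, 715 and 836 in the controls and 205, 152, 281 and 311 after tunicamycin (log2 −1.91, SE 0.24, adjusted p = 1.73e-05), and the helicase subunits Mcm4 and Mcm6 fell (log2 −1.51 and −2.01), Mcm4 without a call when control replicate 1 was left out (log2 −1.24). Wee1, the kinase that holds back mitosis, read 936, 856 and 1003 in the controls and 217, 217, 181 and 250.3 after tunicamycin (log2 −2.11, SE 0.14, adjusted p = 8.06e-08), and Rbl2, a quiescence factor of the retinoblastoma family, fell (log2 −1.52). Ccne2, a cyclin of S phase entry, read 63.8, 68.7 and 53.6 in the controls and 394, 397, 312 and 284 after tunicamycin (log2 2.47, SE 0.21, adjusted p = 7.56e-07), and Cdk7 of the basal transcription machinery rose by log2 1.98. Of 34 genes of the BCL2 family, caspases and death receptors 4 rose and 13 fell (6 and 5 as deposited). The initiator Casp9 read 298, 304 and 276 in the controls and 94.6, 88.4, 83.9 and 90.4 after tunicamycin (log2 −1.71, SE 0.15, adjusted p = 1.1e-06), the effector Casp6 fell (log2 −1.39), the inhibitor Birc3 fell (log2 −2.05), and Cflar, which blocks death receptor signalling, rose by log2 1.12. Birc2, an inhibitor of the same family as Birc3, and the survival factor Mcl1 rose by log2 0.93 and 0.66, Mcl1 without a call when its probe sets were averaged (log2 0.13).

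**Figure D4:**
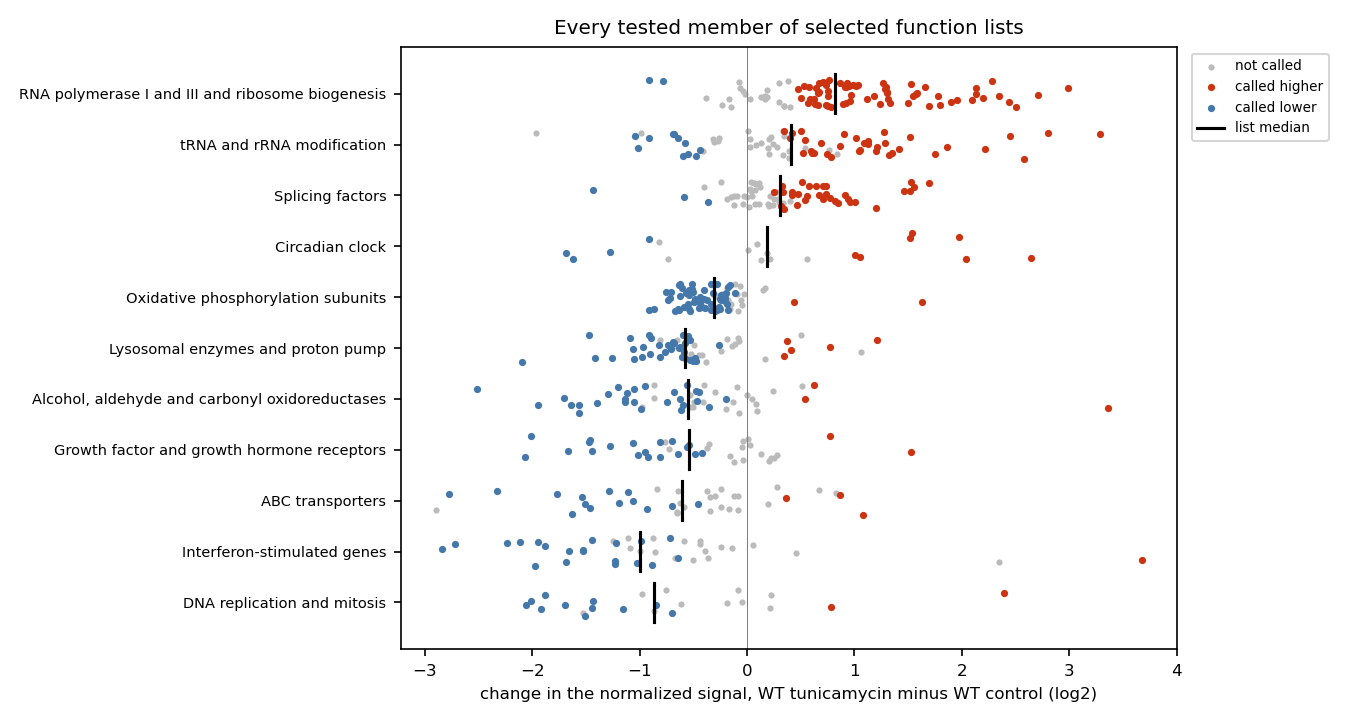
Log2 change (x axis) of every tested member of 11 function lists, red where called higher, blue where called lower and grey where not called, with the list median as a black bar. The members of ribosome biogenesis lie mostly right of 0, those of oxidative phosphorylation mostly left of 0, within 1 log2 unit of it except Cox6a2 (log2 1.63), and the clock genes on both sides.

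Ubiquitin ligases of the Rnf, Trim, Fbxo and Klhl families had 38 of 170 higher (22.4%) and 40 lower (23.5%), near the 20.7% and 26% of all genes, and 58 and 10 as deposited. Trim39 read 203, 214 and 223 in the controls and 1143, 1090, 716 and 975 after tunicamycin (log2 2.18, SE 0.15, adjusted p = 1.09e-07), and Rnf152, a lysosomal ligase acting on growth signalling, read 959, 670 and 769 in the controls and 144, 77.1, 131 and 103 after tunicamycin (log2 −2.84, SE 0.28, adjusted p = 2.17e-06). Of 55 deubiquitinases 19 rose and 11 fell (29 and 1 as deposited), Usp36 of the nucleolus by log2 1.75, with 12 higher when the pair of tunicamycin arrays of high median was left out. Of 46 dual specificity and tyrosine phosphatases 7 rose (15.2%) and 14 fell (30.4%), with 11 and 2 as deposited. Both shares were not far from those of all genes. Dusp16, which acts on JNK, rose by log2 1.68 and Ptp4a3 fell (log2 −1.78).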

How the data were processed

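The 14 mouse liver samples were measured on Affymetrix arrays, 1 array each. The authors deposited 1 signal intensity per probe set on a linear scale, made with MAS5 and GCOS per the submitters' processing notes. Versions, scaling target and genome build: not given in the sources used here. Log2 intensities of the 45037 probe sets that are not controls were quantile normalized. Probe sets above the pooled median (log2 5.37, intensity 41.5) on at least 3 arrays were kept (25316). The platform annotation gave 1 gene for 34945 probe sets, several for 932 and none for 9160. Of the 34945, 34754 were found in RefSeq. Each of 12085 genes was read from its kept probe set of 1 gene with the highest mean.

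The model had 1 mean for each of the 4 groups and was fitted in limma 3.58.1 (lmFit, eBayes with trend; 10 residual degrees of freedom) in R 4.3.3. The test was two-sided, with Benjamini-Hochberg adjustment over all genes and calls at an adjusted p under 0.05. A fold whose lower group averaged under 41.5 is "at least", with that group's arrays raised to 41.5. All adjusted p-values are limma's. On simulated data with 12085 genes, 100 genes were changed by log2 1 and 100 by log2 2 in the WT contrast. Of these, 68% and 91% were recovered, and 6.47% of calls were false. The simulation had independent normal spread and no scaling shift. In the real data 46.7% of genes were called and scaling moved the calls, so these rates need not hold there. The number of arrays limits the precision.

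The comparison, the lists (77 of functions, 7 of stress genes, 10 of cell type markers) and the rules were chosen with earlier results of these data known. Lists are described by counts and medians, without a test. The text names the 16 risers and 16 fallers outside the stress lists, called under both scalings, whose 95% confidence limit lay farthest from 0, up to 6 members per list called under both scalings in order of p, textbook-defining members whatever their value, and markers. Alternatives were other scalings, filters, an added intensity of 11.4 before log2, WT arrays alone, no trend, mean of probe sets, covariates for 3′ to 5′ actin signal and for Xist, a block for replicate number, and single WT arrays left out. Leaving out the pair of tunicamycin arrays of high median and keeping the Xist-low arrays alone were chosen after seeing the data. Replicates sharing a number correlated in their deviations from the group means at −0.25, −0.37 and 0.16. With groups of 3 and 4 arrays these values cannot decide whether the numbers pair the samples. The labels do not state it, and the model used no pairing. Promoter windows are RefSeq's. Figures were drawn with matplotlib 3.10.9 in Python 3.11.15.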

Additional observations from a re-analysis of the deposited data

Results flagged for a closer look

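In the 4 WT tunicamycin arrays, 1 array stood far from the other 3 for 13 of the 202 genes checked, nearly all of which are named here. Chance alone flags about 1 gene in 20 by the test used (Dixon's gap over range, at its 95% critical value for 4 samples). WT tunicamycin replicate 2, the Xist-high array of the group, was that array for 10 of them. It was low for Acacb (50.4 against 78.2 to 84.4), Cyp2b10 (9210 against 11300 to 11400), Egfr (2620 against 8520 to 9580), Kdm4a (767 against 1550 to 1700) and Rora (6130 against 8760 to 9370). It was high for Cdk7 (2170 against 1980 to 2010), Gpat3 (4260 against 2400 to 2520), Ncl (7450 against 5020 to 5060), Nrg1 (124 against 60.8 to 63.8) and Tes (3160 against 2420 to 2490). Replicate 1 stood apart for Clock (680 against 630 to 638), Gjb1 (1910 against 3770 to 3800) and Zfp467 (122 against 66.1 to 68.8).

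For 7 of the 202 genes checked, the groups did not overlap in either genotype, and tunicamycin lay in opposite directions from control in WT and lsPERK liver. Most named genes were chosen by their WT change, and WT groups did not overlap in 48.2% of all genes tested. The share of such opposite genes among all genes was not counted, and the difference between genotypes was not tested. Lower in WT and higher in lsPERK were Nr0b2 (WT log2 −3.33, lsPERK 1.65), Cldn14 (−0.97 and 1.4), Cxcl1 (−1.84 and 1.11) and Nrg4 (−1.65 and 0.92). Higher in WT and lower in lsPERK were Nfil3 (2.64 and −0.62), Fzd7 (1.97 and −0.52) and Npm1 (0.63 and −0.32). In lsPERK liver the first 4 were called higher, and Nfil3, Fzd7 and Npm1 were not called.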

How the results depend on the processing

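Scaling moved the balance of directions most. As deposited, 706 genes were lower, 2192 were higher by at least 2-fold and 330 lower by at least 2-fold, and median centring gave 1954 lower genes. The cause was not tested. Leaving out 1 WT array gave 4897 to 5421 genes called, 2235 to 2367 higher and 2662 to 3058 lower, 1015 to 1133 higher by at least 2-fold and 928 to 1036 lower. All 32 leading genes kept their call and direction in those 7 fits, 20 or 21 of them were called the same way in lsPERK liver, and 21 to 27 function lists had a median above that of all genes. The other alternatives gave 4737 (without the pair of tunicamycin arrays of high median) to 6223 genes called (Xist as a covariate), a strict filter left 7626 genes to test, and 4770 of them were called. With the replicate number as a block, 5472 genes were called, and whether the numbers pair the samples is not known. Each alternative left the direction and call of at least 196 of the 202 checked genes, or all 186 that passed the strict filter, as in the main fit. Changes of sign among them were limited to genes that were not called: Alb (0.077 as deposited, 0.058 without the pair of high median, and −0.062 to 0.007 over the fits without 1 array), Cps1 (−0.145 after median centring) and Egfr (−0.169 to 0.699 over those fits, negative without WT control replicate 1). Signal near the filter threshold of 41.5 limits the folds given as bounds, and neither sex, time of day nor cell makeup could be modelled from the labels.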
